A study of Homo sapiens with 120 samples.

Results

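The 30 arrays of untreated TK6 cells, 15 harvested at 24 h and 15 at 4 h, were compared across all genes. They are all the arrays of the 120 in the series that carry the untreated control title. TK6 is an established human B lymphoblastoid line with functional p53 that is widely used to test chemicals for damage to DNA and chromosomes. The study exposed it to formaldehyde (FA), methyl methanesulfonate (MMS), ethyl methanesulfonate (EMS), colcemid (COL) or vincristine (VCR) for 4 h or 24 h, and each chemical had its own untreated cultures. The untreated arrays therefore fall into 5 sets, named here after the chemical whose controls they were, with 3 experiments per set and 1 array per experiment and time. All 30 share the cell line, the absence of any chemical, and the same extraction kit and labelling protocol. The labels give no medium, cell density or feeding schedule, and do not say whether both cultures of an experiment came from 1 flask. The question was which transcripts of unexposed cells differed between the later and the earlier harvest, the background against which any chemical is read.

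B lymphoblasts express the antigen presentation and immunoglobulin genes of B cells, and their NF-kappaB transcription factors drive chemokine, adhesion and costimulatory genes that neighbouring cells can read. Hypoxia-inducible factor switches on glycolytic and mitophagy genes, and the SREBP factors, freed when membrane sterol is low, switch on the enzymes of cholesterol and fatty acid synthesis.

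Signals are deposited log2 values per probe set, 1 probe set represents each gene, and 14023 of 19775 genes reached 6.18, the median brightness of all probe sets, on at least 3 of the 120 arrays and were tested. Of the 12 B cell markers, 11 had a probe set, all 11 lay above 6.18 at both times and 7 were in the brightest 25% of genes at 4 h, with MS4A1 (CD20) at a mean of 11.87 at 24 h and 11.81 at 4 h. No marker of T or NK cells, of the myeloid lineage, of epithelium and fibroblasts, or of red blood cells was in that brightest 25%. Above 6.18 at 4 h lay 4 of 8 T and NK cell, 3 of 7 myeloid and 4 of 6 epithelial and fibroblast markers. Of 3 red blood cell markers with a probe set 2 did, and HBD had a mean of 8.92 at 4 h. The first principal component of the 30 arrays, with 36.74% of the variance, placed the 24 h arrays between 7.04 and 17.3 and the 4 h arrays between -17 and -8.63, so the times did not overlap on it. Over all tested genes, time took 35.91% of the variance, set 31.12%, experiment within set 14.57% and time by set 8.23%. Correlations between 2 untreated arrays ran between 0.979 and 0.999, and no 2 were identical. The ACTB control probe sets at the 3 prime end were brighter than those at the 5 prime end by 0.59 ± 0.19 at 24 h and 0.45 ± 0.22 at 4 h (SD, n = 15 each, in log2 units). This measure of shortened RNA was higher at 24 h in 13 of 15 pairs (two-sided exact sign-flip permutation p = 0.00128). The MMS arrays stood apart from the others on it, at 0.86 to 1.02 at 24 h and 0.75 to 0.89 at 4 h, and the 4 h array of FA experiment 3 stood at 0.68. The same difference for GAPDH was 0.0071 between times (exact p = 0.695).

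The later harvest differed from the earlier one in many genes by small amounts and in few by large ones. With the experiment of each set as a block, limma called 7405 of 14023 genes at an adjusted p under 0.05 (52.8%), 3712 higher (26.5%) and 3693 lower (26.3%) at 24 h. The median size of a called change was 0.18 on the log2 scale, and the median change of all tested genes was 0.02. At least 2-fold changes were fewer and mostly falls: 18 genes rose and 50 fell that far. The 24 h and 4 h ranges of the 15 arrays did not overlap for 750 genes (5.35%), 293 higher and 457 lower. With the ACTB measure of each array as a covariate, 4865 genes were called, 2359 higher and 2506 lower. Of the genes named below, TGFB1, TNFAIP2, ITGAL, ENO1, ME1, SLC4A1, DNAJB4, BAG3 and RSRP1 lost their call with that covariate, and MYC gained one.

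The leading falls included many secreted and surface proteins of immune signalling, and the leading rises included genes of hypoxia, an immunoglobulin and sterol synthesis. The 15 largest falls ran from CXCL8 at -2.84 to CCL19 at -1.42, and of these 15 only IL6 and CXCL11 had overlapping ranges of 24 h and 4 h arrays. The 15 largest rises lay between 1.93 for MAP3K5-AS2 and 1.15 for LINC00115, and none of their ranges overlapped. These genes were chosen among those alike in at least 14 of 15 pairs, and all 30 moved in the same direction in all 15.

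**Figure D1:**
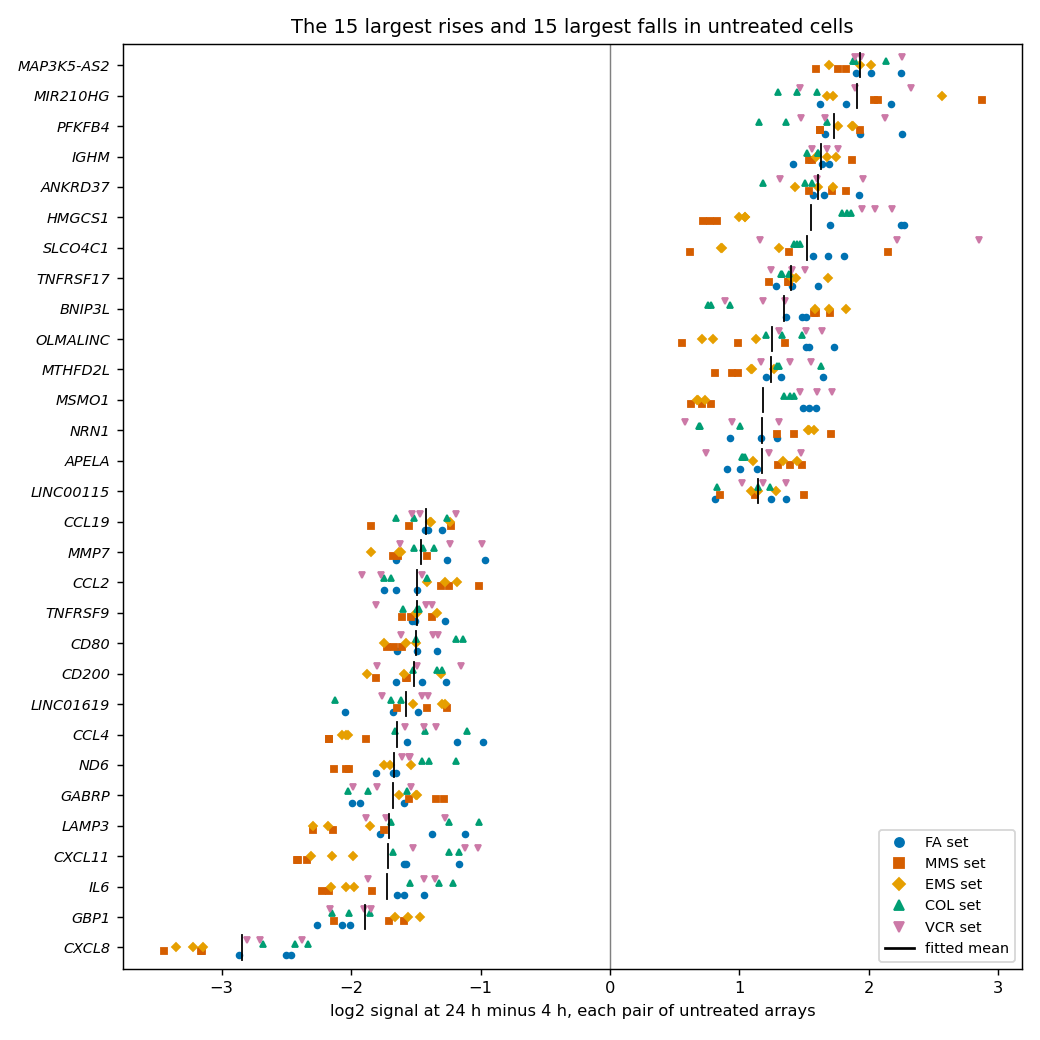
Change in log2 signal at 24 h minus 4 h (x axis) for each of the 15 pairs of untreated arrays, by set, for the 15 largest rises and 15 largest falls (rows), with the fitted mean as a black bar. Every point of the rises lies right of 0 and every point of the falls left of 0, and CXCL8 stands farthest out at a mean of -2.84.

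The chemokine and cytokine genes fell as a group. Of 15 tested, 11 fell and 2 rose, against 26.3% and 26.5% of all tested genes. Their median change was -0.60, against 0.02 over all tested genes. The ranges of 7 did not overlap between times, against 5.35% of all tested genes. CXCL8, the neutrophil attractant interleukin 8, had a lowest, median and highest log2 signal of 4.91, 5.47 and 7.29 at 24 h, against 7.55, 8.15 and 10.74 at 4 h. It was lower at 24 h in every pair, without overlap, a 7.18-fold difference (-2.84 ± 0.086 SE, n = 15 pairs, limma adjusted p = 2.41e-15). At 24 h most of its arrays lay below the 6.18 limit, where arrays tend to compress differences. The 1 other bright probe set of CXCL8 was also called lower, at -1.495, so the size of its fall depends on the probe set.

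IL6, the B cell growth and acute phase cytokine interleukin 6, had 6.67, 7.06 and 8.79 at 24 h, against 8.19, 8.55 and 11.01 at 4 h. Its ranges overlapped, with the sets at different levels, yet all 15 pairs were lower at 24 h (-1.72 ± 0.078, adjusted p = 9.03e-13 in limma). The MMS and EMS sets had the highest levels of both cytokines. CXCL8 lay between 7.09 and 7.29 at 24 h and between 10.24 and 10.74 at 4 h in the MMS set, and between 6.85 and 7.21 at 24 h and 10.07 and 10.56 at 4 h in the EMS set. The other sets reached at most 5.79 at 24 h, in the COL set, and 8.22 at 4 h, in that same set.

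CCL2 and CCL4, which attract monocytes and T cells, followed. CCL2 had 8.60, 8.92 and 10.13 at 24 h, against 10.30, 10.65 and 11.37 at 4 h (-1.49 ± 0.060), and CCL4 fell by 1.64 ± 0.090, both without overlap. CCL22, a ligand of CCR4 on T cells, fell by 1.36, and CXCL10, an interferon-induced attractant of T cells, by 0.86. TNF fell by 0.75 and CCL5 by 0.56. CCL19, the lymph node chemokine that binds CCR7, is outside the list and fell by 1.42 ± 0.043 (limma adjusted p = 2.41e-15). The exceptions were IL16 at 0.41 and TGFB1 at 0.12, which rose, and LTB and TNFSF10 at -0.02 and 0.06, which were not called.

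The NF-kappaB targets fell in 14 of 15 tested genes, against 26.3% of all tested genes, with a median of -0.56. TNFAIP2, at 0.11, was the exception. Feedback inhibitors and subunits of the factor moved alike. NFKBIA, which encodes the inhibitor that holds NF-kappaB in the cytoplasm, had 11.82, 11.96 and 12.21 at 24 h, against 12.61, 12.76 and 13.04 at 4 h. That is a drop without overlap (-0.82 ± 0.020, limma adjusted p = 1.82e-16) that lay between -0.90 and -0.72 in every pair. REL, a subunit abundant in B cells, had 8.77, 9.03 and 9.38 at 24 h, against 9.76, 9.97 and 10.44 at 4 h (-0.96 ± 0.032). The deubiquitinase TNFAIP3, another brake on the pathway, fell by 0.77, RELB by 0.42, NFKB2 by 0.45 and NFKB1 by 0.21. CD40, the receptor for T cell help, fell by 1.01 and CFLAR, an inhibitor of caspase-8, by 0.88.

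Upstream sequence is shown for genes from these groups, which moved together, to display a short kappaB-type motif. The genes were picked among called members whose window held a match, so the presence of a match was fixed by that choice. The windows are the 250 bases before the RefSeq transcription start in GRCh38.p14, 5′ to 3′ on the gene's strand, with matches to GGANNTTCC (either strand) in capitals. They are chr4:73740319-73740568 (plus strand) for CXCL8, chr7:22726950-22727199 (plus) for IL6 and chr14:35404750-35404999 (minus) for NFKBIA.
CXCL8: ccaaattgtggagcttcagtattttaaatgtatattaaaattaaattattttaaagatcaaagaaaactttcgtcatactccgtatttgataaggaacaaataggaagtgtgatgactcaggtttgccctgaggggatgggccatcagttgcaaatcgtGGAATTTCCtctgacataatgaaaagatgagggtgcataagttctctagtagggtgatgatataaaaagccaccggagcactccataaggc
IL6: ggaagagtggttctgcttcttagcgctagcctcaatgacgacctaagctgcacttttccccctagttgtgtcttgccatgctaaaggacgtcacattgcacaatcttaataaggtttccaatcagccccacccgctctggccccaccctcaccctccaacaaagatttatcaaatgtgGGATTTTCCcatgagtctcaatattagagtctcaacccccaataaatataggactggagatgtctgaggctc
NFKBIA: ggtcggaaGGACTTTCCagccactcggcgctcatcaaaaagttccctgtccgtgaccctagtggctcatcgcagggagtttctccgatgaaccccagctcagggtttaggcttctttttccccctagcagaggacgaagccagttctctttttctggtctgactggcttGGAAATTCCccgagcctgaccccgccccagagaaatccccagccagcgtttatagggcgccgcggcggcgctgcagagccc
Among the called chemokine and cytokine genes 4 of 13 starts held a match (30.77%), and among the called NF-kappaB targets 5 of 19 (26.32%), against 3.844% of 35116 starts of all genes. Some genes have several starts. A match describes letters, not binding. The lists group genes by known function and no unchanged members were compared, so these shares do not bear on the change with time.

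Genes of lymphocyte activation and adhesion fell in 11 of 17 cases and rose in 3, against 26.3% and 26.5% of all tested genes. Their median change was -0.35. CD80, the costimulatory ligand of CD28, had 7.65, 8.08 and 8.57 at 24 h, against 9.18, 9.38 and 10.21 at 4 h. It fell 2.82-fold without overlap (-1.50 ± 0.045, limma adjusted p = 2.41e-15), and its partner CD86 fell by 0.61. SLAMF1, a self-binding activation receptor, fell by 1.30, the adhesion molecules CD44 and ICAM1 by 1.08 and 1.06, and CD83 by 0.59. CD69, an early activation antigen, moved the other way (0.39 ± 0.039, adjusted p = 5.51e-08 in limma), as did the integrin subunits ITGA4 (0.23) and ITGAL (0.18). TNFRSF9 (4-1BB), a costimulatory receptor outside the list, had 7.25, 7.61 and 7.79 at 24 h, against 8.97, 9.07 and 9.21 at 4 h. Its change of -1.49 ± 0.033 lay between -1.53 and -1.43 in the means of all 5 sets. CD200, an inhibitory surface ligand, fell by 1.51 ± 0.051.

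Interferon-related genes had mixed values. GBP1, a guanylate-binding protein induced by interferon gamma, had 7.78, 8.24 and 9.28 at 24 h, against 9.78, 10.44 and 11.17 at 4 h (-1.89 ± 0.058), and CXCL11, another interferon-induced chemokine, fell by 1.71 ± 0.12. LAMP3, a lysosomal protein of maturing dendritic cells, fell by 1.71 ± 0.095. All 24 h arrays for LAMP3, and those of the FA, COL and VCR sets for CXCL11, lay below the limit of 6.18. The list of 18 interferon-stimulated genes, mostly targets of type I interferon, had 3 higher and 5 lower, with a median of -0.04, against 26.5% higher and 26.3% lower of all tested genes, so the list did not stand above the background. OAS2 and OAS1, which make the activator of RNase L, rose by 0.63 and 0.36, whereas IRF9, a subunit of the type I interferon transcription complex, fell by 0.37 and MX2 by 0.28.

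Of the monocyte and granulocyte markers, 4 of 10 were bright enough to be tested. All 4 fell, against 26.3% of all tested genes: ITGAM by 0.87, S100A9 by 0.70, S100A8 by 0.62 and CSF1R by 0.11. CSF1R was not called without the MMS, EMS or COL set. ITGAM had 1 other bright probe set, at 0.08, which was not called. The defining markers CD14, LYZ, MPO and ELANE had means of at most 5.36 at 24 h and 5.43 at 4 h, below the limit of 6.18. The median of 7 such markers lay between 5.20 and 5.63 over the 24 h arrays and between 5.27 and 5.61 over the 4 h arrays. In bulk RNA, fewer cells of a kind and less transcript per cell cannot be told apart.

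**Figure D2:**
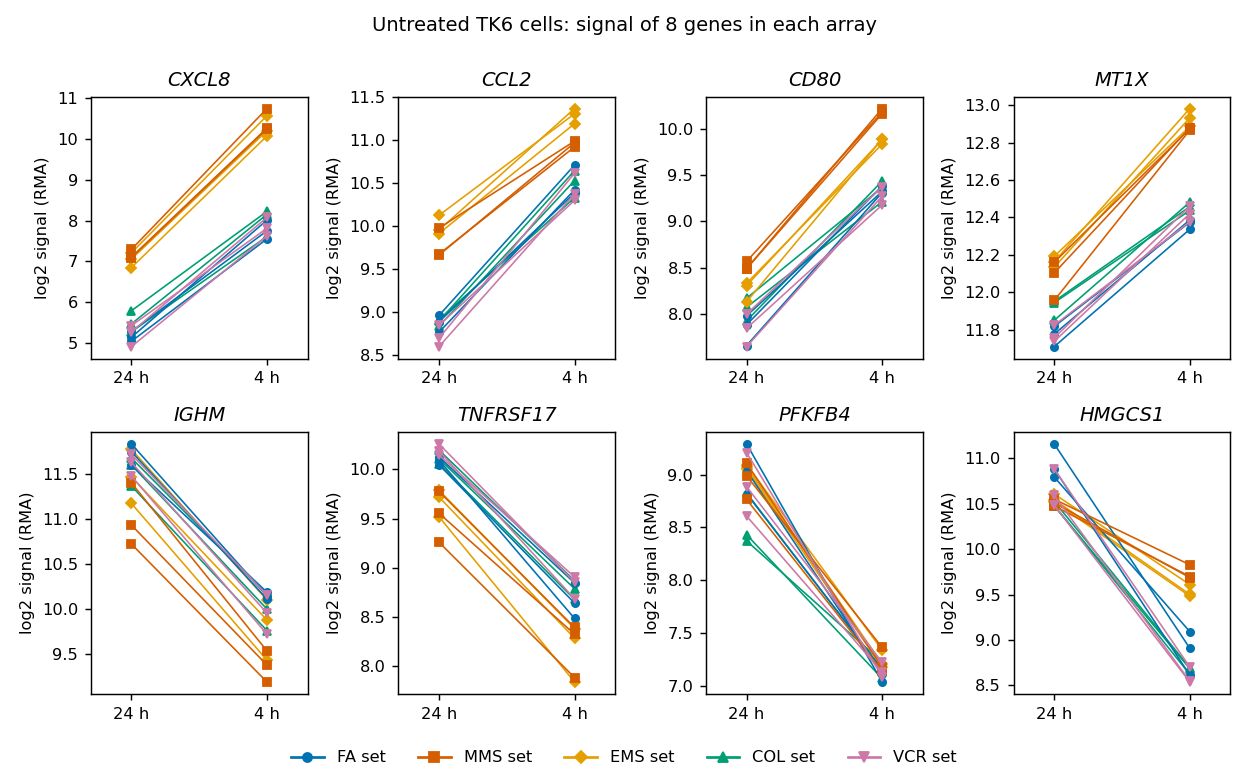
Log2 signal (y axis, each panel with its own scale) of 8 genes in the 30 untreated arrays, 24 h at the left and 4 h at the right, with a line joining the arrays of 1 experiment and colours for the 5 sets. CXCL8, CCL2, CD80 and MT1X are lower and IGHM, TNFRSF17, PFKFB4 and HMGCS1 higher at 24 h in every pair, and the MMS and EMS sets lie highest for CXCL8 at both times.

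The p53 targets were lower at 24 h. Of 33 tested, 24 fell, against 26.3% of all tested genes. None rose, against 26.5%, and 9 were not called, with a median of -0.32. The ranges of 13 did not overlap between times, against 5.35% of all tested genes. ZMAT3, an RNA-binding p53 target, had 9.94, 10.22 and 10.49 at 24 h, against 11.04, 11.27 and 11.52 at 4 h (-1.02 ± 0.032, limma adjusted p = 4.56e-15). GADD45A, a stress sensor of growth arrest, had 11.35, 11.49 and 11.80 at 24 h, against 12.35, 12.44 and 12.60 at 4 h (-0.92 ± 0.031). For neither did the ranges of the times overlap.

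Better known members had smaller changes. CDKN1A, which encodes a cell cycle inhibitor, had 10.61, 10.78 and 10.92 at 24 h, against 10.99, 11.07 and 11.35 at 4 h (-0.35 ± 0.029, limma adjusted p = 4.82e-09). MDM2, the ubiquitin ligase that removes p53, had 11.00, 11.26 and 11.42 at 24 h, against 11.47, 11.68 and 11.88 at 4 h (-0.45 ± 0.036). The death receptor FAS fell by 0.63, the stress cytokine GDF15 by 0.66, the repair gene DDB2 by 0.53 and BAX, a pore-forming killer of mitochondria, by 0.29. The 2 other bright probe sets of GDF15, both at 0.04, were not called. PPM1D, SESN1 and CCNG1, at -0.07, -0.06 and -0.05, were not called.

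Metallothioneins, small proteins that bind zinc and copper, fell as a group. Of 9 tested genes of zinc handling 8 fell and 1 rose, against 26.3% and 26.5% of all tested genes, with a median of -0.52. MT1X had 11.71, 11.94 and 12.19 at 24 h, against 12.34, 12.46 and 12.98 at 4 h (-0.67 ± 0.032, limma adjusted p = 1.78e-12), and MT2A fell by 0.59 ± 0.025. MT1E, MT1H, MT1F and MT1G fell by 0.56, 0.53, 0.52 and 0.43. Metallothionein transcripts are nearly identical, so probes may be shared and the 6 genes may not be separate measurements. The zinc-sensing factor MTF1 fell by 0.39 and its target SLC30A1, which exports zinc from the cytoplasm, by 0.38. SLC39A10, which imports zinc, rose: it had 9.33, 9.65 and 9.94 at 24 h, against 8.20, 8.63 and 9.31 at 4 h (0.94 ± 0.046).

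Metal response elements, which MTF1 binds, cluster before these genes, and the windows of MT1X (chr16:56682220-56682469, plus strand) and MT2A (chr16:56608334-56608583, plus) are shown for them. Both were picked among called genes with 1 start and at least 1 match. Capitals mark matches to TGCGCNC or TGCACNC on either strand, 4 in MT1X and 7 in MT2A, as counted with overlaps.
MT1X: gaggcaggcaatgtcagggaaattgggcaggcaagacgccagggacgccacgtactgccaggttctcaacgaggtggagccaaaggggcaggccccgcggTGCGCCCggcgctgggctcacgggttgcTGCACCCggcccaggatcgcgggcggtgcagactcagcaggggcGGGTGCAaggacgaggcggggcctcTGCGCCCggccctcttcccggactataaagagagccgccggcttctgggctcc
MT2A: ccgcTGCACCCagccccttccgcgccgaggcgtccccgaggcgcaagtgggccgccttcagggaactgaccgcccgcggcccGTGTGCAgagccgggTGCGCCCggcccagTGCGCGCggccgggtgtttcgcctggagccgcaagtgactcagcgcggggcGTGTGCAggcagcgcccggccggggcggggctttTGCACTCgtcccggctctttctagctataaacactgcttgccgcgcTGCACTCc
The motif is short: 24.83% of all 35116 starts held at least 1 match, and 4 of 7 starts of the called zinc genes did (57.14%). As the list groups genes by known function, this share does not bear on the change with time.

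Genes of glycolysis and hypoxia rose in 25 of 34 cases and fell in 4, against 26.5% and 26.3% of all tested genes. Their median change was 0.21. The ranges of 12 did not overlap, against 5.35% of all tested genes. PFKFB4, which makes the activator of phosphofructokinase, had 8.37, 8.99 and 9.29 at 24 h, against 7.03, 7.15 and 7.36 at 4 h, a 3.33-fold rise (1.73 ± 0.065, limma adjusted p = 6.40e-14). The 1 other bright probe set of PFKFB4 was also called higher, at 0.37, so the size of its rise depends on the probe set. ANKRD37, a hypoxia-induced ankyrin repeat protein, had 9.17, 9.48 and 9.91 at 24 h, against 7.62, 7.94 and 8.02 at 4 h (1.61 ± 0.050). MIR210HG, the host transcript of the hypoxia-induced microRNA miR-210, is outside the list and had 7.22, 7.82 and 8.64 at 24 h, against 5.66, 5.93 and 6.22 at 4 h (1.91 ± 0.099). None of these ranges overlapped.

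Other members of the list were higher as well. BNIP3L, a mitophagy receptor, had 9.96, 10.42 and 10.74 at 24 h, against 8.68, 9.04 and 9.31 at 4 h (1.35 ± 0.081), and BNIP3, a related receptor, rose by 1.10 ± 0.040. PDK1, which blocks pyruvate dehydrogenase, rose by 0.92, the histone demethylase KDM3A by 0.82, the prolyl hydroxylase P4HA1 by 0.64 and the mTORC1 inhibitor DDIT4 by 0.68. Lactate dehydrogenase LDHA changed less (0.24 ± 0.019) and the angiogenic factor VEGFA by 0.38 ± 0.039. Hexokinase HK2 rose by 0.58 ± 0.027 on its brightest probe set, while 2 other probe sets of it fell, between -0.33 and -0.30, so its direction depends on the probe set. P4HA2 (-0.61), MXI1 (-0.26), PFKFB3 (-0.15) and ENO1 (-0.07) fell, and EGLN3 and NDRG1, at 0.02 and 0.08, were not called.

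The window before ANKRD37 (chr4:185396591-185396840, plus strand) shows the core of the hypoxia response element, ACGTG on either strand, in capitals. It holds 3 matches as counted with overlaps. ANKRD37 was likewise picked among called genes whose window held a match.
ANKRD37: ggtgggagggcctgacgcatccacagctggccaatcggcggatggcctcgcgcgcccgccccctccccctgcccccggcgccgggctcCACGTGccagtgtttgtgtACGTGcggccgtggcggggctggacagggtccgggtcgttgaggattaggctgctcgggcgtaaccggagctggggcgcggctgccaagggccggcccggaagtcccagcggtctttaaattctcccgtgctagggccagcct
Of 45 starts of the called genes of this list 22 held a match (48.89%), against 18.51% of all 35116 starts. The list was drawn up by known function, so this share too does not bear on the change with time.

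Sterol and fatty acid synthesis rose together. Of 19 tested genes of cholesterol synthesis and uptake 17 rose and 1 fell, with a median of 0.43. Of 11 genes of fatty acid synthesis 10 rose and 1 fell, with a median of 0.36 (0.24 on the mean of a gene's probe sets). Over all tested genes 26.5% rose and 26.3% fell. HMGCS1, which makes HMG-CoA for sterol synthesis, had 10.48, 10.55 and 11.16 at 24 h, against 8.54, 8.91 and 9.83 at 4 h, without overlap (1.55 ± 0.13, limma adjusted p = 6.42e-09). MSMO1, a sterol oxidase, rose by 1.18 ± 0.095, the isomerase IDI1 by 0.79, squalene epoxidase SQLE by 0.76, DHCR7 by 0.72 and INSIG1, the sterol-dependent anchor of SREBP, by 0.68. SREBF2, which encodes the main sterol-regulated factor, rose by 0.17. PMVK fell by 0.20, and STARD4, at 0.07, was not called.

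Enzymes of fatty acid synthesis rose in a similar fashion. The desaturase SCD had 12.33, 12.51 and 12.66 at 24 h, against 11.73, 11.91 and 12.13 at 4 h (0.58 ± 0.027, limma adjusted p = 1.37e-12). FASN and ACACA, which build the chain, rose by 0.44 and 0.41, and SREBF1 by 0.39. FASN and ACACA had 1 other bright probe set each, at 0.005 (not called) and 0.14 (called). The elongase ELOVL6 rose by 0.71 on its brightest probe set, although 1 of its 2 others fell, at -0.23. ME1, which supplies NADPH, fell by 0.13. Targets of LXR, the receptor for excess sterol, moved less: of 5 tested, LPCAT3 (-0.33) and MYLIP (-0.28) fell and ABCA1, APOE and NR1H3, at 0.01, -0.03 and 0.03, were not called. LPCAT3 had 1 other bright probe set, at 0.05, which was not called.

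Markers of antibody-secreting differentiation rose in 6 of 9 cases and fell in 1, against 26.5% and 26.3% of all tested genes. Their median change was 0.25. IGHM, the immunoglobulin mu heavy chain, belongs to the B cell identity list and had 10.72, 11.60 and 11.83 at 24 h, against 9.18, 9.95 and 10.18 at 4 h. Its 3.10-fold rise (1.63 ± 0.030, limma adjusted p = 5.09e-18) lay between 1.41 and 1.87 in every pair and between 1.58 and 1.67 in the set means. Of the 4 other bright probe sets of IGHM, at -0.05 to 1.265, 2 were called higher, so the size of its rise depends on the probe set. TNFRSF17, the receptor BCMA of plasma cells, had 9.26, 10.06 and 10.26 at 24 h, against 7.84, 8.64 and 8.91 at 4 h (1.40 ± 0.032). MZB1, a chaperone of immunoglobulin assembly, rose by 0.95, XBP1, the factor of the secretory program, by 0.61, and CD38 by 0.58. PRDM1, the master regulator of plasma cells, rose by 0.25, whereas IRF4 and SDC1, at 0.00 and 0.06, were not called and FKBP11 fell by 0.36.

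B cell identity genes split, 7 higher and 5 lower of 17, with a median of 0.04, against 26.5% higher and 26.3% lower of all tested genes. Beside IGHM, the largest rise of that list, the tetraspanin CD37 rose by 0.65, the coactivator POU2AF1 by 0.49, the adaptor BLNK by 0.45, CD22 by 0.44 and CD79A by 0.38. CD37 and POU2AF1 had 1 other bright probe set each, at 0.04 and -0.02, not called. Beside CD40, the largest fall at -1.01, EBF1, a specification factor of early B cells, fell by 0.60 ± 0.034, the kinase BLK by 0.45, HLA-DRA by 0.16 and CD74 by 0.14. PAX5, CD79B and MS4A1, at -0.04, 0.02 and 0.06, were not called.

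Cell cycle lists held genes called in both directions. Replication-dependent histones, whose arrays detect the small share of transcripts with a poly(A) tail, rose in 12 of 18 cases and fell in 1, with a median of 0.20, with H1-2 at 0.50 and H4C4, which lay mostly below the limit of 6.18 at both times, at 0.60. Genes of DNA replication rose in 21 of 42 cases and fell in 8 (3 with the ACTB covariate), with a median of 0.08. The licensing factors CDC6 and MCM4 rose by 0.37 and 0.28, and the ligase LIG1 fell by 0.26. MCM6 rose by 0.39 on its brightest probe set, but its other probe set fell by 0.38. The mitosis list had 9 higher (5 with the covariate) and 7 lower of 34, near the shares of all tested genes (26.5% and 26.3%), with a median of 0.03, among them HMMR (0.55) and BUB1 (0.45) higher and UBE2C (-0.30) and TOP2A (-0.24) lower.

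The proliferation markers MKI67 and PCNA were not called on their brightest probe sets. Of 3 other bright probe sets of MKI67, at -0.26 to 0.10, 1 was called lower. MKI67 had 10.03, 10.24 and 10.51 at 24 h, against 9.92, 10.20 and 10.44 at 4 h (0.04 ± 0.046, limma adjusted p = 0.515). PCNA, the replication clamp, changed by -0.04 ± 0.022, CCNB1, the mitotic cyclin, by 0.16 ± 0.031, and MYC by 0.01 ± 0.047. Of these 4 only CCNB1 was called. The list of G1 cyclins, E2F factors and cycle inhibitors had 7 higher and 7 lower of 21 (4 and 4 with the covariate), against 26.5% and 26.3% of all tested genes. CCNG2 rose by 0.47 and CDKN1B, which blocks cyclin-dependent kinases, by 0.26, whereas CDKN1A fell by 0.35, E2F7 by 0.27 and RBL1, which turned direction on the mean of its probe sets, by 0.18. Ribosomal protein genes stayed within -0.06 and 0.10 (4 higher and 1 lower of 24, and 2 and 0 with the covariate), and genes of MYC and ribosome biogenesis had 6 higher and 7 lower of 28 (2 higher on the mean of a gene's probe sets). Neither of the last lists stood above the shares of all tested genes.

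Protein turnover genes fell slightly. Of 27 proteasome subunits 20 fell and 3 rose, with a median of -0.10, and 12 fell with the ACTB covariate. They were led by the ATPase subunit PSMC3 (-0.44) and the immunoproteasome subunit PSMB10 (-0.38). Lysosome and autophagy genes fell in 15 of 27 cases and rose in 6 (10 and 4 with the covariate). Over all tested genes 26.3% fell and 26.5% rose. The protease CTSS fell by 0.41, the regulator MITF by 0.31 and the kinase ULK1 by 0.29, while WIPI1, which builds autophagosomes, rose by 0.77.

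The counts of the stress lists stand against 26.5% higher and 26.3% lower of all tested genes. Of 22 heat shock and chaperone genes 8 rose and 4 fell (4 and 2 with the ACTB covariate), with a median of 0.03, led by the co-chaperone DNAJB4 (0.81) among the rises. Of 19 genes of the unfolded protein response and protein folding in the endoplasmic reticulum 4 rose and 4 fell (2 and 3 with the covariate), neither above those shares. XBP1 (0.61) and CRELD2 (-0.64) lay the farthest each way. Of 36 genes of ATF4 and the amino acid response 15 fell and 7 rose, with a median of -0.08. SLC7A11, the cystine importer, fell by 1.08, INHBE by 0.69, ATF5 by 0.60, DDIT3, which encodes CHOP, by 0.55 and CHAC1 by 0.43, whereas asparagine synthetase ASNS (0.04 ± 0.027) was not called. Of 24 genes of NRF2 and thiol defence 12 fell (7 with the ACTB covariate) and 2 rose, among them SOD2 (-0.48) and GPX4 (-0.29) lower and HMOX1 (0.42) higher. Of 16 apoptosis regulators 9 fell, including both the killer BCL2L11 (-0.63) and the protectors BCL2L1 (-0.45) and BCL2 (-0.43), and 4 rose, led by APAF1 (0.40).

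The largest falls of the heat shock and chaperone list were the cold-inducible RNA-binding proteins. CIRBP had 11.23, 11.35 and 11.54 at 24 h, against 11.90, 12.31 and 12.44 at 4 h (-0.82 ± 0.056, limma adjusted p = 3.82e-10), and RBM3 fell by 0.54 ± 0.044, both without overlap. Of 12 clock genes 7 fell and 1 rose, against 26.3% and 26.5% of all tested genes, with a median of -0.18. The falls were led by HLF (-0.79), which lay below the limit of 6.18 at 24 h, and RORA (-0.53). The glucose-sensing gene TXNIP fell by 0.38 ± 0.031. TSC22D3, a glucocorticoid and FOXO target, rose by 0.59 ± 0.032, and CITED2 fell by 0.54.

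The lists hold 777 entries, of which 706 had a probe set and 662 were tested, with some genes in several lists, and the remaining lists had mixed or small changes. Their counts stand against 26.5% higher and 26.3% lower of all tested genes, and the immediate early and oxidative phosphorylation lists lay near those shares. Immediate early genes had 6 higher (3 with the ACTB covariate) and 7 lower of 23: IER2 rose by 0.47 and EGR1 by 0.52, KLF6, JUN and ATF3 fell by 0.81, 0.60 and 0.57, and FOS (0.13 ± 0.064) was not called. ATF3 had 2 other bright probe sets, neither of which was called. Oxidative phosphorylation genes lay between -0.12 and 0.16, with 8 higher and 6 lower of 30 (1 lower with the covariate), but ND6, a complex I subunit encoded on mitochondrial DNA and outside the list, fell by 1.67 ± 0.059 without overlap. Of 12 housekeeping genes PGK1 (0.10) rose and GUSB (-0.22) and ACTB (-0.20) fell, and GAPDH (0.04 ± 0.018) was not called. Of 7 T and NK cell markers 5 rose (3 with the ACTB covariate and 3 without the MMS set) and 1 fell, by at most 0.21. Of 5 red blood cell markers HBD (0.94), HBB (0.42) and SLC4A1 (0.14, a call lost when any of several single experiments was left out) rose, and CDH1 of the epithelial list fell by 1.09. The part of those cell types in the results was not tested.

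**Figure D3:**
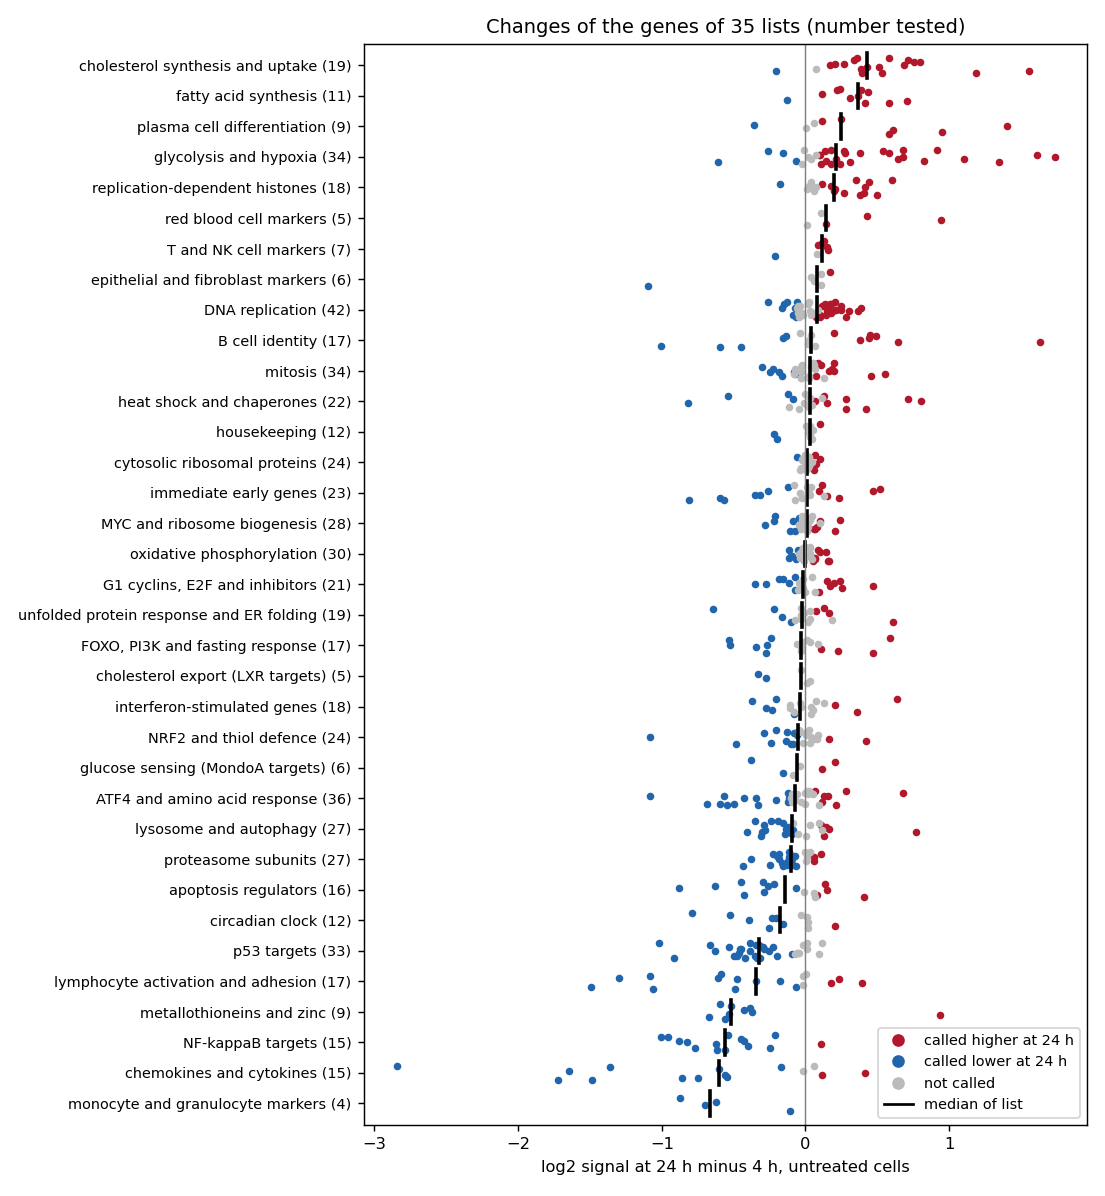
Change in log2 signal at 24 h minus 4 h (x axis) of every tested gene of the 35 lists (rows, with the number tested), coloured by the limma call, with the median of each list as a black bar. Medians run between -0.66 for monocyte and granulocyte markers and 0.43 for cholesterol synthesis and uptake, with chemokines at -0.60, NF-kappaB targets at -0.56 and p53 targets at -0.32.

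Among the remaining leading genes several are noncoding or rarely studied in B cells. MAP3K5-AS2, an antisense transcript named for its neighbour, had the largest rise: 9.16, 10.15 and 10.33 at 24 h, against 7.33, 8.08 and 8.39 at 4 h (1.93 ± 0.045, limma adjusted p = 5.76e-17). The array's probes do not settle how far an antisense gene and its partner share signal where they overlap. The folate enzyme MTHFD2L rose by 1.25 on its brightest probe set, with 3 of its 5 others higher and 1 lower. OLMALINC rose by 1.25 ± 0.080, the neuritin gene NRN1 by 1.18, the peptide hormone gene APELA by 1.18 and LINC00115, mostly below the limit of 6.18, by 1.15. SLCO4C1, an organic anion transporter, rose by 1.52 ± 0.13, although 4.87, 5.40 and 6.76 at 24 h, against 3.72, 4.05 and 4.34 at 4 h, were nearly all below the limit of 6.18. Among the falls, GABRP, a GABA receptor subunit, had 7.50, 7.64 and 8.22 at 24 h, against 9.14, 9.56 and 9.74 at 4 h (-1.67 ± 0.057), the metalloproteinase MMP7 changed by -1.46 ± 0.059 and LINC01619 by -1.58 ± 0.060.

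The change with time was then compared between the 5 sets. Called genes numbered 4471 in the FA set (31.9%), 4675 in the MMS set (33.3%), 3604 in the EMS set (25.7%), 4122 in the COL set (29.4%) and 4309 in the VCR set (30.7%). In the MMS set 38.9% of the calls were higher, but 54.9% were when quantile normalization was repeated, so that split depends on the scaling. Leaving out MMS experiment 1 or 3 left 3036 or 3022 calls there, and the ACTB covariate left 2640 in the COL set. In all 5 sets 1565 genes were called in the same direction (11.2%), 601 higher and 964 lower. Across genes, the set changes correlated most between COL and VCR (r = 0.918) and least between MMS and VCR (r = 0.617), as a description over 14023 genes that are not independent.

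A moderated F test found a difference between sets in 1484 genes (10.6%), and 27 of the 68 genes with 2-fold changes were among them. The count was 891 without MMS experiment 3. Of the genes called over all sets, 1476 had opposite signs in at least 2 of them. The 6 genes with the widest range of set changes are described first. DNAJB4, a co-chaperone of HSP70, changed by 1.29 in the FA set, -0.17 in MMS, 0.04 in EMS, 1.35 in COL and 1.52 in VCR (SE 0.087 each, F test adjusted p = 1.95e-06). Its level at 24 h lay between 7.57 and 8.15 in all sets, while at 4 h it lay between 7.39 and 8.12 in the MMS and EMS sets and between 6.34 and 6.87 in the others.

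TMT1A, a methyltransferase, went the opposite way, with changes of 1.00 in MMS and 1.12 in EMS, against -0.20 in FA, -0.25 in COL and -0.18 in VCR. The fructose transporter SLC2A5 changed by 0.83 in MMS and 0.78 in EMS and by -0.40, -0.54 and -0.28 in FA, COL and VCR. RSRP1, an arginine and serine rich protein, changed by -0.33 and -0.12 in MMS and EMS and by 0.78, 1.00 and 1.04 in FA, COL and VCR. RPGRIP1L, a protein of the ciliary transition zone, and the noncoding DNAJC3-DT completed the 6, each with a range of 1.40 between the lowest and highest set.

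By list, 11 of 19 genes of the unfolded protein response, 16 of 34 mitosis genes, 10 of 22 heat shock genes, 10 of 19 cholesterol genes and 9 of 15 chemokine genes differed between sets, against 10.6% of all tested genes. None of 24 ribosomal protein genes, none of 30 oxidative phosphorylation genes and 1 of 27 proteasome subunits did. HMGCS1 rose in each set, by 2.08 in FA, 0.77 in MMS, 1.03 in EMS, 1.83 in COL and 2.06 in VCR (F test adjusted p = 1.50e-05). Its 24 h levels lay between 10.48 and 11.16 in all sets, and its 4 h levels between 9.69 and 9.83 in MMS and 9.48 and 9.61 in EMS, against at most 9.09 in the other sets. MSMO1 rose by 0.71 in MMS and 0.70 in EMS, against 1.54 in FA, 1.39 in COL and 1.60 in VCR.

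The co-chaperone genes CHORDC1 and BAG3 rose by 0.98 and 0.78 in FA, 1.02 and 0.79 in COL, and 1.18 and 0.86 in VCR. In MMS they changed by 0.12 and -0.15, and in EMS by 0.28 and -0.15. HMOX1, which degrades heme, changed by 1.02 in FA, 0.35 in COL and 0.87 in VCR, against -0.06 in MMS and -0.09 in EMS, and the immediate early gene EGR1 by 1.22, 0.72 and 0.77, against -0.11 and -0.01. CXCL11 fell by 2.39 in MMS and 2.15 in EMS, and by 1.44, 1.36 and 1.22 in FA, COL and VCR. The ACTB measure also set the MMS arrays apart, whereas the EMS arrays, at 0.45 to 0.59 at 24 h and 0.30 to 0.43 at 4 h, overlapped the FA, COL and VCR arrays. Its part in the differences between sets was not tested beyond the count with it as a covariate, 1571 genes.

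**Figure D4:**
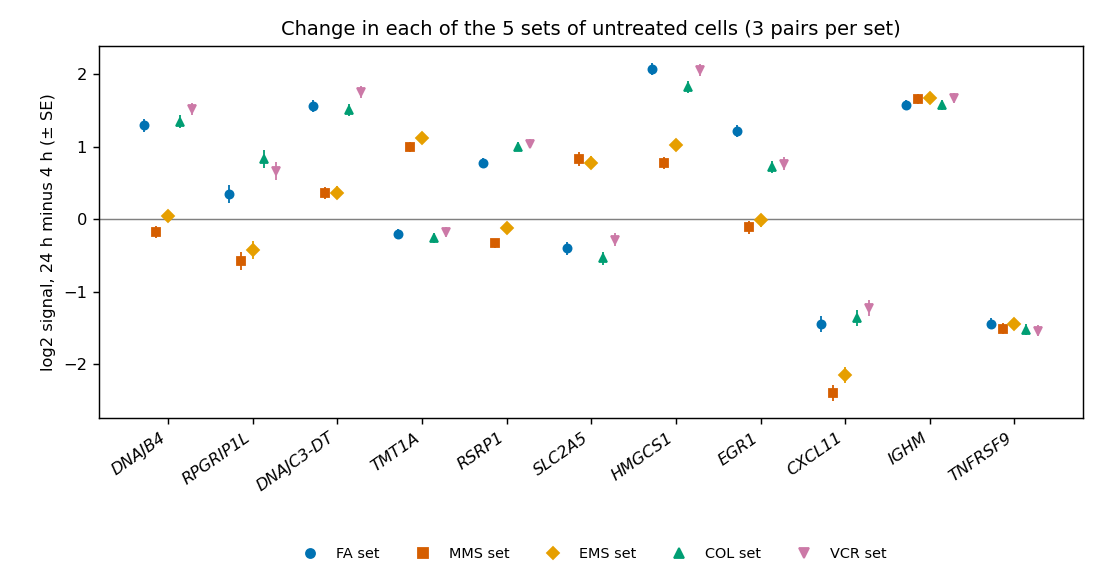
Change in log2 signal at 24 h minus 4 h (y axis, mean of 3 pairs with its SE) in the 5 sets of untreated cells, for the 6 genes with the widest range of set changes and 5 others (x axis). DNAJB4, RSRP1 and EGR1 lay at 0.72 or above in the FA, COL and VCR sets and at 0.04 or below in the MMS and EMS sets, whereas IGHM lay between 1.58 and 1.67 and TNFRSF9 between -1.53 and -1.43 in every set.

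Arrays of cells given the lowest dose of each chemical (50 µM FA, 80 µM MMS, 1 mM EMS, and the lowest labelled dose of COL and VCR) hold 15 further pairs of 24 h and 4 h from the same experiments. Their 24 h minus 4 h change called 6028 genes (43.0%). Of the 68 genes with 2-fold changes in untreated cells, all 18 rises and 42 of 50 falls were called in the same direction there. CYP4F3 and FAM13C, which fell in untreated cells (-1.12 and -1.05), rose at the lowest dose (1.28 ± 0.41 and 0.87 ± 0.23). CSTA, CXCL9, LINC01619, TNFAIP6, TNFSF4 and ZMAT3 were not called there, and these 8 genes are named after their values were seen. At 2-fold, 35 genes changed at the lowest dose and 19 were shared, 27.9% of the untreated list and 54.3% of the lowest-dose list.

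A test of dose level against time, pooled over the 5 chemicals, found 3022 genes whose change with time differed at the lowest dose (21.6%), among them 46 of the 68. Each chemical gave only 3 of the 15 lowest-dose pairs. The values below are averages over chemicals, and whether they hold for each chemical was not tested. Of the 33 p53 targets the change of 31 was higher at the lowest dose, and their median there was 0.25, against -0.32 in untreated cells, with 19 higher and 1 lower. CDKN1A changed by 0.35 ± 0.13 at the lowest dose, against -0.35 ± 0.029 in untreated cells, and MDM2 by 0.46 ± 0.12, against -0.45 ± 0.036. Interferon-stimulated genes differed in 12 of 18 cases, all higher at the lowest dose, where 14 rose. DNA replication genes differed in 27 of 42 cases, all lower at the lowest dose, with a median of -0.16 there, against 0.08 in untreated cells.

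Other groups moved in the same direction in both. Cholesterol genes had medians of 0.43 at the lowest dose and 0.43 in untreated cells, with 15 of 19 and 17 of 19 higher, and 5 of 19 differed. CXCL8 changed by -2.68 ± 0.23 at the lowest dose, against -2.84 ± 0.086 in untreated cells, and the difference of 0.16 was not called (limma adjusted p = 0.712). NF-kappaB targets had a median of -0.33 there, against -0.56, with 7 of 15 differing, all in the direction of a smaller fall. IGHM rose by 0.96 ± 0.12 at the lowest dose, less than in untreated cells (difference -0.67, adjusted p = 0.000299 in limma).

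**Figure D5:**
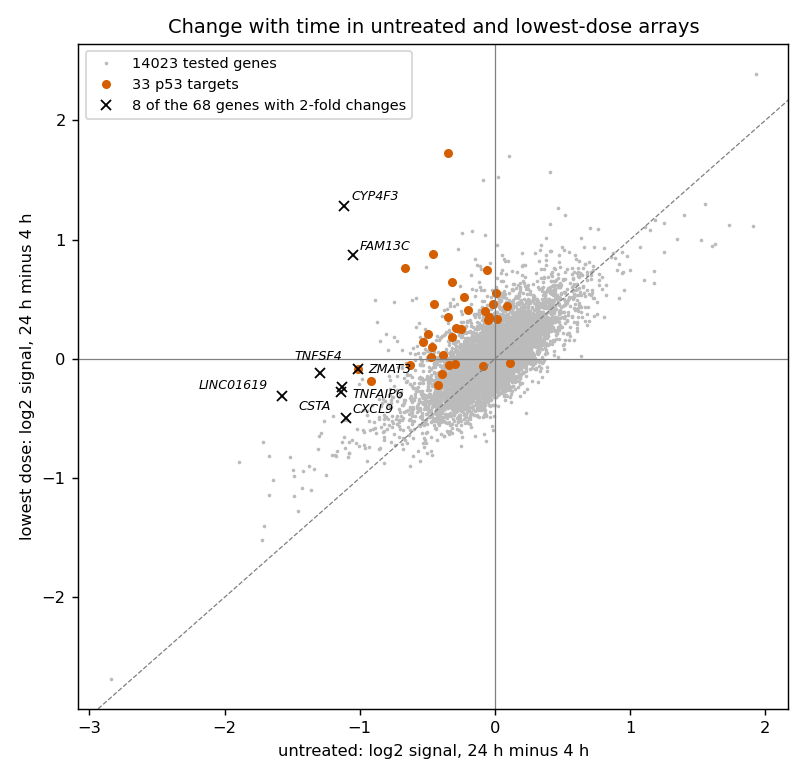
Change in log2 signal at 24 h minus 4 h of every tested gene in lowest-dose arrays (y axis) against untreated arrays (x axis), 15 pairs each, with the line of equal change dashed, p53 targets in orange and the 8 genes with 2-fold changes that were not called in the same direction marked by crosses. CYP4F3 and FAM13C lie above 0 at the lowest dose at 1.28 and 0.87, and the orange points have a median of 0.25 there, against -0.32 in untreated cells.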

How the data were processed

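RNA of the TK6 cells was hybridised to Affymetrix HG-U133 Plus 2 arrays, and the deposited values are log2 signals per probe set, summarised with RMA according to the submitters' processing notes. Its version, and whether 1 run covered every array, are not given in the sources used here. RMA subtracts background, scales arrays to 1 distribution and sums probes, which compresses fold changes of dim genes and hides a shift shared by most genes. Array medians lay between 6.14 and 6.22. Of 54675 probe sets, 41091 carry 1 gene symbol, 1801 several and 11721 none in the platform annotation, and 62 are controls. The brightest probe set with 1 symbol stood for each of 19775 genes, and 10523 genes had at least 2.

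The fits were made in limma 3.58.1 (R 4.3.3), and other values in Python 3.11.15 with numpy 2.4.6 and pandas 2.3.3. Time was fitted with 15 blocks, 1 per experiment of each set, as this comparison is defined, with Benjamini-Hochberg adjustment over all tested genes and calls at an adjusted p of 0.05. The same fit gave a term for each set and the F test between sets. The lowest-dose arrays were fitted alike, and dose by time was tested over 60 arrays. Fitted changes carry their SE. Exact permutation used all 32768 sign flips. Experiments are numbered in the labels without saying how the cultures were kept apart, so p-values measure the spread between these experiments, which may be technical, and the number of arrays limits the precision. On the third principal component (9.37% of the variance) experiment 2 at 24 h lay between 5.07 and 12.24 in all 5 sets. Experiment 3 at 4 h lay between -12.57 and -6.11 in all 5. Blocks do not remove a deviation shared across sets, so the 15 pairs may not be independent and SEs and p-values may be too small. On simulated data for the 24 h minus 4 h comparison over 14023 genes, 93.5% of changes of 0.25 and 99.5% of changes of 0.5 were recovered in 1 simulation of both sizes, in which 3.98% of all calls were false, and the F test between sets found 39.5% of genes changed by 0.5 in 1 set. Simulated noise was independent between arrays, and 400 genes were changed in the 24 h minus 4 h simulation. These rates therefore do not cover deviations shared across sets.

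The gene lists, the comparison and its members were chosen with earlier results of these data known. Genes are named as the 15 largest changes each way among called genes with at least 14 of 15 pairs alike, up to 4 called genes of each list each way, a panel of 19 genes, and the 6 widest differences between sets. Other genes, including list members described as not called and the 8 lowest-dose exceptions, were named after their values were seen. Sequences are from RefSeq (GRCh38.p14). Alternatives were the block, the filter, the probe set rule, repeated quantile normalization, the ACTB covariate, left-out experiments and sets, and 1 fit over 120 arrays.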

Additional observations from a re-analysis of the deposited data

Results flagged for a closer look

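The change with time differed between the 5 sets of untreated cells in 1484 genes by the limma F test, and the genes named in the text that were called are given here by the range of their 5 set changes on the log2 scale, highest minus lowest set. First, wide ranges were found for DNAJB4 (1.70), DNAJC3-DT (1.40), RPGRIP1L (1.40), TMT1A (1.38), SLC2A5 (1.37), RSRP1 (1.37), EGR1 (1.33), HMGCS1 (1.30), CXCL9 (1.18), CXCL11 (1.17), HMOX1 (1.11), CHORDC1 (1.06) and BAG3 (1.01). Intermediate ranges were found for MSMO1 (0.90), CDH1 (0.89), BNIP3L (0.88), CCL4 (0.83), LAMP3 (0.79), INHBE (0.79), CXCL8 (0.77), NRN1 (0.75), CD38 (0.74), IL6 (0.72), OLMALINC (0.72), ND6 (0.71), XBP1 (0.69), BLK (0.68), H1-2 (0.67), IDI1 (0.63), SOD2 (0.62), FASN (0.58), CIRBP (0.55), CCL2 (0.53) and SLC7A11 (0.53). Narrower ranges were found for SQLE (0.46), SLC39A10 (0.44), CRELD2 (0.44), BNIP3 (0.44), DDIT4 (0.44), CD40 (0.40), CDC6 (0.39), IL16 (0.38), ACACA (0.37), VEGFA (0.36), OAS1 (0.34), MITF (0.33), PFKFB3 (0.29) and TXNIP (0.25).

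The change with time also differed between lowest-dose and untreated arrays in 3022 genes by the limma interaction test. Of the genes named in that comparison, the lowest-dose change minus the untreated change was above 0 for CYP4F3 (2.40), FAM13C (1.92), CSTA (0.86), LINC01619 (1.26), TNFAIP6 (0.90), TNFSF4 (1.18), ZMAT3 (0.93), CDKN1A (0.70) and MDM2 (0.91), and it was -0.67 for IGHM.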

How the results depend on the processing

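With the ACTB 3 prime minus 5 prime difference as a covariate, calls over all sets numbered 4865 and calls in the COL set 2640. Time and that measure moved together, so the covariate also removes signal shared with time. Without the replicate block the dose by time test called 4665 genes, and the FA set alone called 3493 at the lowest dose. With GAPDH in place of ACTB the difference between times was 0.0071. Leaving out each experiment in turn gave 7018 to 7472 calls over all sets, 3262 to 4580 in FA, 3022 to 4791 in MMS, 2479 to 3717 in EMS, 2942 to 4261 in COL and 3129 to 4405 in VCR. It gave 891 to 1527 between sets, 5742 to 5941 at the lowest dose and 2528 to 3192 for dose by time. The other settings kept each count within 1.5 times: over all sets 7311 without the replicate block, 7455 with it as a random term, 7961 with no filter, 7084 with the limit in 15 of 30 untreated arrays, 6730 on the mean of probe sets, 7720 with quantile normalization repeated, 6519 to 7072 without any set and 8613 in 1 fit over 120 arrays. On the mean of probe sets POLR1B (-0.0681), RBL1 (0.000556) and HK2 (-0.0140) turned direction. Of 239 genes named by rule, 179 had the same call in all 29 settings. As a check of the pairing, deviations of arrays from their group means correlated within an experiment by 0.1715 on average (range -0.2724 to 0.4477), over 0.1 in 10 of 15 pairs. In 9 genes, among them MKI67 and MTHFD2L, another probe set was called the opposite way. Dim genes near the limit, such as SLCO4C1 and HLF, limit what a fold change can show.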
